A study of Saccharomyces cerevisiae with 18 samples.

Results

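The genes of ergosterol synthesis were followed here in yeast strains that carry mutant forms of the histone chaperone Spn1. The set was chosen by function and holds 31 genes of the 6577 in the expression matrix: the enzymes of the mevalonate and sterol pathway with their electron donors and scaffolds, the acyltransferases that store sterol as ester, the regulators UPC2 and ECM22, and the sterol-binding protein gene HES1. All 31 were among the 5954 genes that passed the filter on low values. Poly-A RNA was sequenced from 3 cultures each of spn1 K192N, spn1 141-305 and wild-type cells of the BY4741 background, which gave 9 libraries. The cultures grew in rich medium at 30 °C, and fission yeast (S. pombe) cells were added to each as a spike-in. In the mutants the chromosomal SPN1 gene was replaced by LEU2, and the allele was carried with a myc tag on a HIS3 centromeric plasmid under the SPN1 promoter. The study describes wild-type cells with full-length SPN1 on the same kind of plasmid, whereas the sample labels list only the BY4741 genotype for them, so plasmid and tag of the wild-type libraries could not be checked. K192N changes 1 residue of the conserved core through which Spn1 binds Spt6 and RNA polymerase II. The 141-305 form keeps that core and lacks both tails, which contact histones, DNA and nucleosomes.

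Ergosterol is the main sterol of yeast membranes and takes the place that cholesterol has in animal cells. Its synthesis starts from acetyl-CoA, passes through mevalonate, farnesyl pyrophosphate and squalene to lanosterol, and ends with a chain of demethylations, reductions and desaturations of the sterol. Much of its control lies in HMG-CoA reductase, encoded by HMG1 and HMG2, and in the paralogous zinc cluster factors Upc2 and Ecm22, which bind the sterol regulatory element in promoters of ERG genes and raise transcription when sterols run low.

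The sterol regulatory element has the 7-base core TCGTATA, which was searched on both strands in the 500 bases before each start codon of the R64 genome. It stood before 9 of the 31 ergosterol genes (29.0%) and before 386 of 5564 protein-coding genes (6.94%). The holders were ERG13, ERG8, ERG1, ERG25, ERG6, ERG2, ERG3, ERG28 and CYB5. The sites of 4 of them are printed on the strand of the gene, 5′ to 3′, with the core or its reverse complement TATACGA in capitals. ERG13 and ERG1 are shown because they were the holders with lower RNA in a mutant by the test on all 9 libraries, and ERG25 and ERG3 because each has a pair of sites and did not pass that test.
ERG13, chrXIII:20732-20760, minus strand: cggaataagctTCGTATAtacaatagaaa
ERG13, chrXIII:20619-20647, minus strand: gggctattaatTATACGAgtgtgttgaaa
ERG1, chrVII:848788-848816, minus strand: gtagcgggcctTCGTATAgctcggccgag
ERG25, chrVII:610070-610098, plus strand: actgcctccctTCGTATAcgggacacaga
ERG25, chrVII:610090-610118, plus strand: ggacacagagaTCGTATAcggtaaacgac
ERG3, chrXII:253524-253552, plus strand: caaccggggtgTATACGAggccgatggct
ERG3, chrXII:253564-253592, plus strand: aaaattcaggcTCGTATAagtggcacaat
The first base of the core lies 214 and 101 bases before the start codon of ERG13, 382 before that of ERG1, 483 and 463 before that of ERG25, and 326 and 286 before that of ERG3. The Hap1 motif, a spaced direct repeat of CGG bound by a heme-responsive factor, was searched in the same way and was in the windows of 0 of the 31 genes and of 0.377% of all genes. A match is a description of the letters in these windows and not a measured binding site.

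The authors deposited each gene's value on the rlog scale, a log2 scale on which differences between libraries are shrunk, after scaling the libraries on the S. pombe genes. Depth per library is therefore unknown. Genotypes were compared with limma in 1 fit of the 9 libraries over the 5954 genes, two-sided, and a gene was called at a Benjamini-Hochberg adjusted p below 0.05. Both mutants were compared with the same wild-type libraries. SPN1 itself had rlog values of 12.81 ± 0.71 in spn1 K192N, 11.31 ± 0.42 in spn1 141-305 and 12.30 ± 0.65 in wild-type (SD, n = 3). In spn1 141-305, which lacks part of the gene, it fell by 0.99 relative to wild-type (adjusted p = 0.00638), although the libraries of the pair overlapped. In 1 spn1 K192N library, replicate 1, the median gene stood 0.061 above its mean over the 9 libraries, like wild-type (0.018 to 0.11) and unlike spn1 K192N replicates 2 and 3 (−0.047 and −0.062) or spn1 141-305 (−0.052 to −0.027). The counts called lower in spn1 K192N over all ergosterol genes and over a further list of sterol genes are given with and without this library. Where its removal changes the call of a printed log2 fold change of spn1 K192N against wild-type, that result is given too. Counts in spn1 K192N by pathway segment, promoter motif, gene length and level are for all 9 libraries only. Without replicate 1, 23 ergosterol genes were called lower in spn1 K192N, so these smaller counts need not hold in that fit. In spike-in scaled bulk RNA, a lower value can stem from fewer intact cells per spike-in cell or from less RNA per cell, which cannot be told apart.

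Most ergosterol genes stood lower in both mutants than in wild-type, as did most of all tested genes. With all 9 libraries, calls were mainly in spn1 141-305. Without spn1 K192N replicate 1, 23 were called lower in spn1 K192N and 19 in spn1 141-305 (34.1% and 34.2% of all genes). Which mutant had more calls thus depended on this library. In spn1 141-305 against wild-type, 11 of 31 were called lower (35.5%, against 18.8% of all tested genes) and 0 higher (0.453% of all). No member was higher at an unadjusted p below 0.05 either. The 11 were HMG1, HMG2, ERG13, ERG1, ERG7, ERG11, ERG24, ERG4, NCP1, ARE2 and UPC2. The median log2 fold change was −0.20 over the ergosterol genes and −0.09 over all tested genes, and 29 of 31 were below 0, as were 86.3% of all genes. In 22 of the 31 the spn1 141-305 libraries were all below the lowest wild-type one, which held for 45.0% of all genes, and in 0 they were all above (1.60% of all).

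In spn1 K192N against wild-type, 2 of 31 were called lower, ARE2 and UPC2 (6.45%, against 4.80% of all genes), and 0 higher (0.403% of all), also at an unadjusted p below 0.05. The share called lower was close to that over all genes. The median was −0.15 over the ergosterol genes and −0.08 over all tested genes, and 28 of 31 were below 0, against 83.6% of all. The libraries did not overlap for HMG1, ERG11 and ERG29, lower in spn1 K192N, which is 3 of 31 against 18.8% of all genes, and for 0 that were higher (1.44% of all). Without spn1 K192N replicate 1 the count called lower was 23 of 31, against 34.1% of all genes. The 8 that were not called then were MVD1, IDI1, ERG2, ERG5, ERG4, CYB5, ECM22 and HES1. The count called lower was 0 when spn1 K192N replicate 2 or 3 or wild-type replicate 1 (0.840% of all genes) or 2 was left out. It was 4 when wild-type replicate 3 was. Where no share over all genes stands beside a count, it was not computed for that fit.

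The count in spn1 141-305 also moved with single libraries. It was 19 without spn1 K192N replicate 1 (34.2% of all genes) and 2 without wild-type replicate 1 (4.67% of all). The count was 4 without spn1 141-305 replicate 1 or 2, 7 without replicate 3 and 3 without wild-type replicate 2. For these last fits no share over all genes was computed, so their counts do not set the ergosterol genes apart from other genes. HMG1 and UPC2 kept their calls in all 9 fits that leave out 1 library, ARE2 in 8 and HMG2 in 7. The other 7 kept them in 3 to 5 of the 9 fits, and all 7 lost them without spn1 141-305 replicate 1 or 2 or wild-type replicate 1 or 2. ERG7, ERG11, ERG24, ERG4 and NCP1 also lost theirs without spn1 141-305 replicate 3, and ERG7 without spn1 K192N replicate 2. Setting the median gene of every library to the same level, a scaling that ignores the spike-in, brought the median log2 fold change of all genes to 0.00091 in spn1 K192N (−0.08 as deposited) and to 0.0063 in spn1 141-305 (−0.09 as deposited). Relative to that level, 6 ergosterol genes were called lower in spn1 141-305 (HMG1, HMG2, ERG1, ERG11, ARE2 and UPC2, against 8.30% of all genes) and 1 higher (CYB5, against 3.17% of all). In spn1 K192N ARE2 and UPC2 were called lower under this scaling too (2 of 31, against 3.28% of all) and 0 genes higher (1.29% of all).

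**Figure D1:**
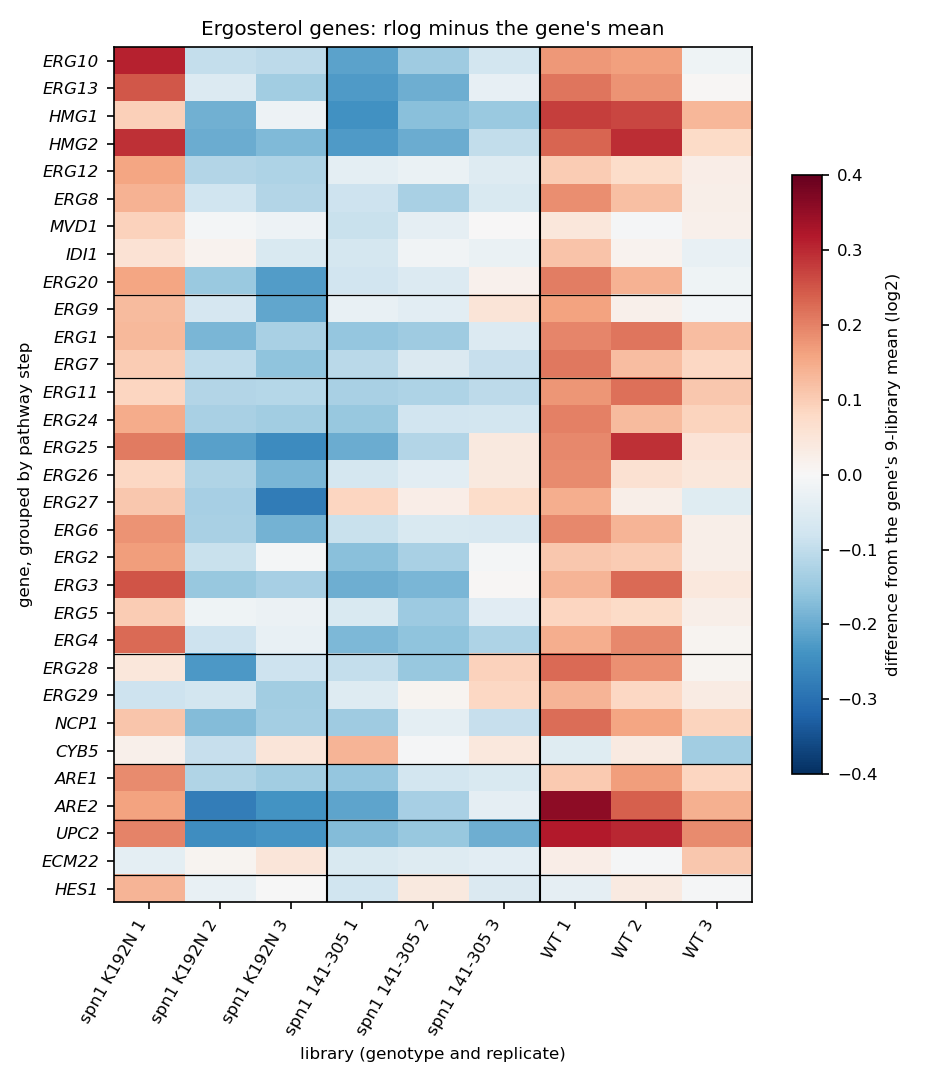
Deviation of each of the 31 ergosterol genes (rows, in pathway order) from its own mean over the 9 libraries (columns, by genotype and replicate), in rlog units on a log2 scale, red above and blue below. The median gene of the set stood at 0.14, −0.12 and −0.13 in spn1 K192N replicates 1, 2 and 3, at −0.11 to −0.045 in spn1 141-305 and at 0.025 to 0.18 in wild-type, so that the first spn1 K192N column resembles the wild-type columns.

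The replicates spread unevenly between genotypes. The SD of an ergosterol gene over 3 libraries ran from 0.035 to 0.28 in spn1 K192N (median 0.16), from 0.0093 to 0.13 in spn1 141-305 (median 0.050) and from 0.025 to 0.12 in wild-type (median 0.080).

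In the mevalonate segment, which makes the isoprenoid units, 3 of 9 genes were called lower in spn1 141-305 (18.8% of all genes) and 0 in spn1 K192N (4.80% of all). HMG1 (YML075C, R64 chromosome XIII, 115734 to 118898, minus strand) encodes the main HMG-CoA reductase in aerobic cells. Its rlog values were 12.43, 12.14 and 12.31 in the spn1 K192N libraries, 12.09, 12.16 and 12.18 in spn1 141-305, against 12.61, 12.60 and 12.46 in wild-type. All 6 mutant libraries lay below the lowest wild-type library. HMG1 fell by 0.41 on the log2 scale in spn1 141-305 (SE 0.083, adjusted p = 0.00159), and its value in spn1 K192N was −0.27 (adjusted p = 0.0580). Without spn1 K192N replicate 1 that value was −0.33 and called (adjusted p = 0.000519).

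HMG2 (YLR450W, chromosome XII, 1032627 to 1035764, plus strand) encodes the second HMG-CoA reductase, whose protein is degraded when the pathway's products accumulate. It had values of 12.04, 11.55 and 11.57 in spn1 K192N, 11.52, 11.55 and 11.65 in spn1 141-305, against 11.98, 12.04 and 11.82 in wild-type. The spn1 141-305 libraries were all below wild-type, while spn1 K192N replicate 1 sat among the wild-type libraries. The log2 fold change was −0.38 in spn1 141-305 (SE 0.098, adjusted p = 0.00974) and −0.23 in spn1 K192N (adjusted p = 0.155). Leaving out spn1 K192N replicate 1 gave −0.39 in spn1 K192N, which was called (adjusted p = 5.64e-05). The call in spn1 141-305 was lost without wild-type replicate 1 or 2, with adjusted p up to 0.0784.

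ERG13 (YML126C, chromosome XIII, 19060 to 20535, minus strand), which encodes HMG-CoA synthase and carries both sites printed above, had values of 13.77, 13.47 and 13.39 in spn1 K192N, 13.30, 13.33 and 13.49 in spn1 141-305, against 13.74, 13.71 and 13.53 in wild-type. The spn1 141-305 and wild-type libraries were separated by the narrow gap between 13.49 and 13.53. ERG13 fell by 0.28 on the log2 scale in spn1 141-305 (SE 0.096, adjusted p = 0.0379), and the value in spn1 K192N was −0.11 (adjusted p = 0.463), or −0.23 and called without its replicate 1 (adjusted p = 0.0173). The other 6 genes of the segment were not called. Of these, ERG10, the acetoacetyl-CoA thiolase of the first step, ERG8, phosphomevalonate kinase, and ERG12, mevalonate kinase, had spn1 141-305 libraries all below wild-type, with log2 fold changes of −0.25, −0.20 and −0.11. The log2 fold changes of ERG20, farnesyl pyrophosphate synthase, MVD1, mevalonate pyrophosphate decarboxylase, and IDI1, isopentenyl diphosphate isomerase, ran from −0.15 to −0.06 in spn1 141-305, with overlapping libraries.

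From squalene to lanosterol 2 of 3 genes were called lower in spn1 141-305, against 18.8% of all genes, and 0 in spn1 K192N, against 4.80%. ERG1 (YGR175C, chromosome VII, 846933 to 848423, minus strand) encodes squalene epoxidase, the target of terbinafine. Its values were 14.67, 14.36 and 14.41 in spn1 K192N, 14.38, 14.40 and 14.48 in spn1 141-305, against 14.73, 14.75 and 14.66 in wild-type. Wild-type and spn1 141-305 libraries stood well apart, while spn1 K192N replicate 1 was level with the lowest wild-type library. The log2 fold change of ERG1 was −0.29 in spn1 141-305 (SE 0.090, adjusted p = 0.0239) and −0.24 in spn1 K192N (adjusted p = 0.112), which was −0.33 and called without replicate 1 of spn1 K192N (adjusted p = 0.000623).

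ERG7 (YHR072W, chromosome VIII, 239098 to 241293, plus strand) encodes lanosterol synthase, which closes the sterol rings. It had values of 11.89, 11.69 and 11.63 in spn1 K192N, 11.69, 11.74 and 11.70 in spn1 141-305, against 12.00, 11.92 and 11.88 in wild-type. Again spn1 141-305 was wholly below wild-type and spn1 K192N replicate 1 was not. Its log2 fold change in spn1 141-305 was −0.22 (SE 0.079, adjusted p = 0.0460), the call closest to the threshold and kept in 3 of 9 fits without 1 library. In spn1 K192N it was −0.19 (adjusted p = 0.142), and −0.27 and called without replicate 1 (adjusted p = 0.00263). ERG9, squalene synthase, which commits farnesyl pyrophosphate to sterols, was not called and had −0.064 in spn1 141-305 with overlapping libraries (adjusted p = 0.609).

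Between lanosterol and ergosterol 3 of 10 genes were called lower in spn1 141-305 and 0 in spn1 K192N, beside 18.8% and 4.80% of all genes. ERG11 (YHR007C, chromosome VIII, 120091 to 121683, minus strand) encodes lanosterol 14-alpha-demethylase, the cytochrome P450 that azole antifungals inhibit. Its values were 14.91, 14.71 and 14.71 in spn1 K192N, 14.70, 14.70 and 14.72 in spn1 141-305, against 15.00, 15.05 and 14.93 in wild-type. The libraries of both mutants were separated from wild-type. The log2 fold change was −0.29 in spn1 141-305 (SE 0.087, adjusted p = 0.0221) and −0.22 in spn1 K192N (adjusted p = 0.132). In spn1 K192N without replicate 1 it was −0.28 and called (adjusted p = 0.00309).

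ERG24 (YNL280C, chromosome XIV, 109095 to 110411, minus strand), the sterol C-14 reductase gene, had values of 11.63, 11.35 and 11.34 in spn1 K192N, 11.33, 11.40 and 11.41 in spn1 141-305, against 11.68, 11.61 and 11.57 in wild-type. The spn1 141-305 libraries were all lower, with a log2 fold change of −0.24 (adjusted p = 0.0368). ERG4 (YGL012W, chromosome VII, 472855 to 474276, plus strand) encodes the C-24(28) reductase of the last step. Its values were 13.05, 12.74 and 12.79 in spn1 K192N, 12.64, 12.66 and 12.70 in spn1 141-305, against 12.96, 13.01 and 12.83 in wild-type. The spn1 141-305 libraries lay below all others, with a log2 fold change against wild-type of −0.27 (SE 0.087, adjusted p = 0.0300).

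The remaining 7 genes of this segment were not called in either mutant. In ERG25, the C-4 methyl sterol oxidase gene, ERG3, the C-5 desaturase gene, ERG6, the C-24 methyltransferase gene, ERG2, the C-8 isomerase gene, ERG5, the C-22 desaturase gene, and ERG26, the C-3 dehydrogenase gene, all spn1 141-305 libraries lay below wild-type. Their log2 fold changes in spn1 141-305 ran from −0.27 in ERG25 to −0.12 in ERG26. ERG27, the 3-keto reductase gene of the C-4 demethylation complex, was the exception in the segment, with 0.021 in spn1 141-305 (adjusted p = 0.879) and −0.14 in spn1 K192N (adjusted p = 0.310), or −0.25 and called without its replicate 1 (adjusted p = 0.00657). ERG25 had −0.27 in spn1 K192N (adjusted p = 0.121) and −0.41, called, when that library was left out (adjusted p = 8.74e-05).

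**Figure D2:**
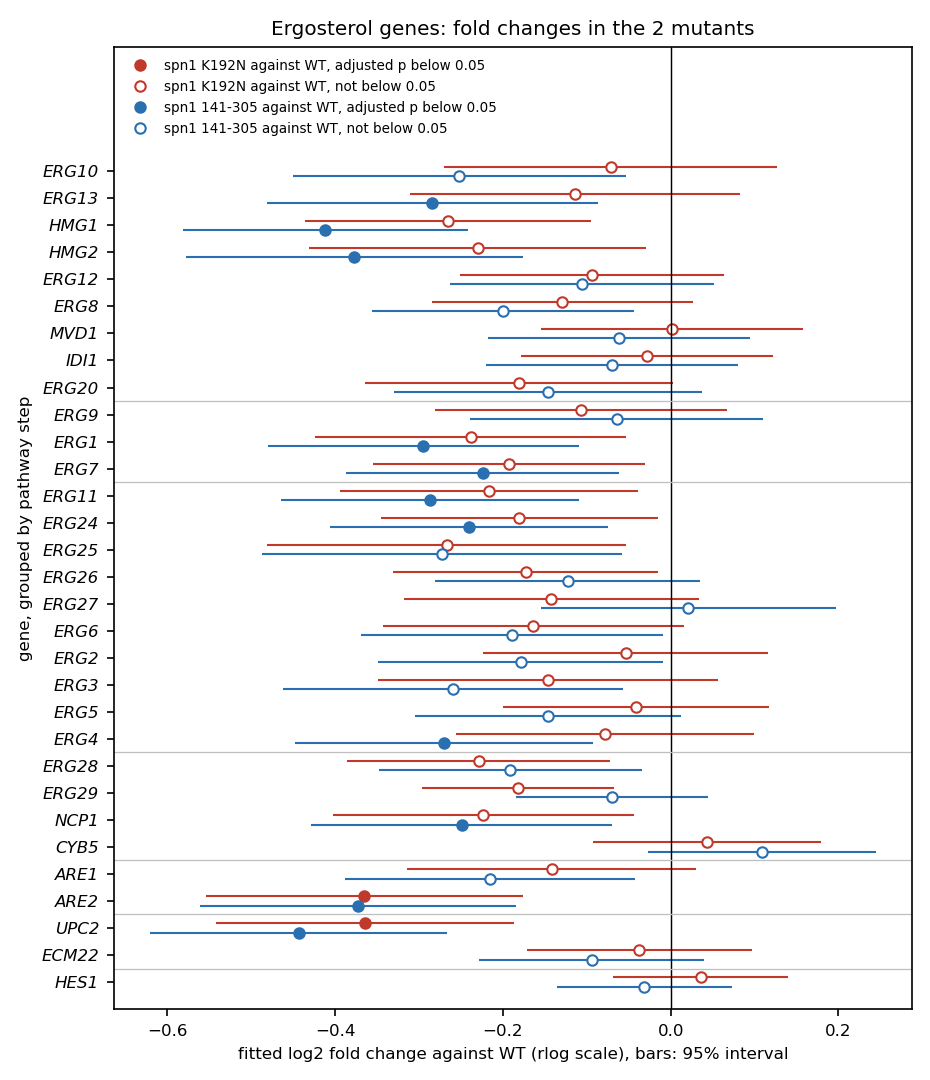
Fitted log2 fold change against wild-type on the rlog scale (horizontal axis) for the 31 ergosterol genes (vertical axis, in pathway order), in spn1 K192N (red, upper point) and spn1 141-305 (blue, lower point). Bars are 95% intervals from limma, and filled points have an adjusted p below 0.05, which are 2 genes in spn1 K192N and 11 in spn1 141-305.

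Of the 4 accessory genes, NCP1 was called lower in spn1 141-305 (18.8% of all genes were) and 0 in spn1 K192N (4.80%). NCP1 (YHR042W, chromosome VIII, 190543 to 192618, plus strand) encodes the reductase that passes electrons from NADPH to the cytochromes P450 Erg11 and Erg5 and to Erg1. It had values of 13.85, 13.56 and 13.60 in spn1 K192N, 13.59, 13.70 and 13.64 in spn1 141-305, against 13.96, 13.89 and 13.82 in wild-type. Only spn1 K192N replicate 1 among the mutant libraries reached the wild-type range. Its log2 fold change was −0.25 in spn1 141-305 (SE 0.088, adjusted p = 0.0451) and −0.22 in spn1 K192N (adjusted p = 0.122). When replicate 1 of spn1 K192N was left out, the value in spn1 K192N was −0.31 and called (adjusted p = 0.00114). The other 3 were at lower levels. ERG28, the scaffold of the C-4 demethylation complex, had −0.19 in spn1 141-305 (adjusted p = 0.0727) and −0.23 in spn1 K192N (adjusted p = 0.0728), the second being −0.30 and called without spn1 K192N replicate 1 (adjusted p = 0.00155). ERG29, an endoplasmic reticulum protein gene of sterol synthesis, had −0.070 in spn1 141-305 (adjusted p = 0.370) and −0.18 in spn1 K192N (adjusted p = 0.0529), the second being −0.19 and called without that library (adjusted p = 0.0129). CYB5, cytochrome b5, an alternative electron donor, had 0.11 in spn1 141-305 (adjusted p = 0.241) and 0.043 in spn1 K192N (adjusted p = 0.695). Under the scaling to the median gene CYB5 was called higher in spn1 141-305, with a log2 fold change of 0.21 (adjusted p = 0.0261).

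The acyltransferases Are1 and Are2 esterify sterols for storage in lipid droplets, and Are2 carries most of the activity in aerobic cells. ARE2 (YNR019W, chromosome XIV, 665339 to 667267, plus strand) had values of 11.20, 10.76 and 10.80 in spn1 K192N, 10.83, 10.90 and 11.00 in spn1 141-305, against 11.39, 11.27 and 11.18 in wild-type. The spn1 141-305 libraries were all below wild-type, and spn1 K192N replicate 1 lay just above the lowest wild-type library. On the log2 scale ARE2 fell by 0.37 in spn1 K192N (SE 0.092, adjusted p = 0.0182) and likewise fell by 0.37 in spn1 141-305 (adjusted p = 0.00684). Without spn1 K192N replicate 1 the value in spn1 K192N was −0.50 (adjusted p = 3.16e-07). The call there was lost without spn1 K192N replicate 2 or 3 or wild-type replicate 1 or 2 (adjusted p up to 0.215), and the call in spn1 141-305 was lost without wild-type replicate 1 (adjusted p = 0.0844). ARE1 (YCR048W, chromosome III, 211929 to 213761, plus strand) had values of 12.15, 11.84 and 11.82 in spn1 K192N, 11.81, 11.89 and 11.90 in spn1 141-305, against 12.06, 12.13 and 12.05 in wild-type. Replicate 1 of spn1 K192N was above all wild-type libraries, and the other mutant libraries were below them. It was not called, with −0.14 in spn1 K192N (adjusted p = 0.301) and −0.22 in spn1 141-305 (adjusted p = 0.0677). With replicate 1 of spn1 K192N left out it was called there, with −0.25 (adjusted p = 0.00506). ARE1 shares 298 bases of its position with YCR050C, whose mean scaled count was 115 against 4014 for ARE1.

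Of the regulators, UPC2 was called in both mutants and ECM22 in neither, which does not by itself show that they differ. UPC2 (YDR213W, chromosome IV, 889751 to 892492, plus strand) had values of 10.16, 9.71 and 9.73 in spn1 K192N, 9.79, 9.81 and 9.77 in spn1 141-305, against 10.28, 10.26 and 10.15 in wild-type. Replicate 1 of spn1 K192N sat with wild-type, and the other 5 mutant libraries lay far below. UPC2 fell by 0.36 on the log2 scale in spn1 K192N (adjusted p = 0.0118) and fell by 0.44 in spn1 141-305 (SE 0.086, adjusted p = 0.00122), the lowest fold change of the 31 there. Without spn1 K192N replicate 1 the value in spn1 K192N was −0.51 (adjusted p = 4.37e-08). The call in spn1 141-305 held without any single library, whereas the call in spn1 K192N was lost without spn1 K192N replicate 2 or 3 or wild-type replicate 1 or 2 (adjusted p up to 0.141).

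ECM22 (YLR228C, chromosome XII, 600019 to 602463, minus strand) had values of 9.93, 9.98 and 10.02 in spn1 K192N, 9.91, 9.92 and 9.93 in spn1 141-305, against 10.00, 9.97 and 10.08 in wild-type. By a small margin, all of spn1 141-305 was below wild-type. It was not called, with −0.094 in spn1 141-305 (95% interval −0.23 to 0.040, adjusted p = 0.303) and −0.037 in spn1 K192N (adjusted p = 0.735). HES1, an oxysterol-binding protein homolog and the gene of the set with the lowest level, had 0.036 in spn1 K192N (adjusted p = 0.673) and −0.031 in spn1 141-305 (adjusted p = 0.684).

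The paralogs were compared within each library, which removes any scaling that both genes share. The coding sequences of the pairs are 64.5% identical for HMG1 and HMG2, 56.9% for ARE1 and ARE2, and 59.3% for UPC2 and ECM22, with longest shared runs of 23, 17 and 29 bases. UPC2 minus ECM22 was −0.11 ± 0.30 in spn1 K192N, −0.13 ± 0.028 in spn1 141-305 and 0.22 ± 0.13 in wild-type (SD, n = 3). The sign of this difference was thus the reverse of wild-type in all 3 spn1 141-305 libraries and in spn1 K192N replicates 2 and 3 (−0.27 and −0.29). It was not in spn1 K192N replicate 1 (0.23). Rlog values are not corrected for gene length (2742 bp for UPC2, 2445 bp for ECM22). The sign therefore does not tell which of the 2 RNAs was more abundant, and only its change between genotypes is read. The difference from wild-type was −0.35 in spn1 141-305 (exact permutation p = 0.10, the smallest that 3 against 3 allows, 0.30 adjusted over 9 tests) and −0.33 in spn1 K192N (exact permutation p = 0.20, adjusted 0.45).

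ARE2 minus ARE1 was −1.02 ± 0.064 in spn1 K192N, −0.95 ± 0.047 in spn1 141-305 and −0.80 ± 0.11 in wild-type. The mutant libraries were all below wild-type, with differences of −0.22 in spn1 K192N and −0.16 in spn1 141-305 (exact permutation p = 0.10 for each, adjusted 0.30). HMG1 minus HMG2 was 0.57 ± 0.18 in spn1 K192N, 0.57 ± 0.040 in spn1 141-305 and 0.61 ± 0.046 in wild-type, which overlapped (exact permutation p = 0.80 and 0.30, adjusted 1.0 and 0.45). With 3 libraries a group this test could not pass the 0.05 threshold for any pair.

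**Figure D3:**
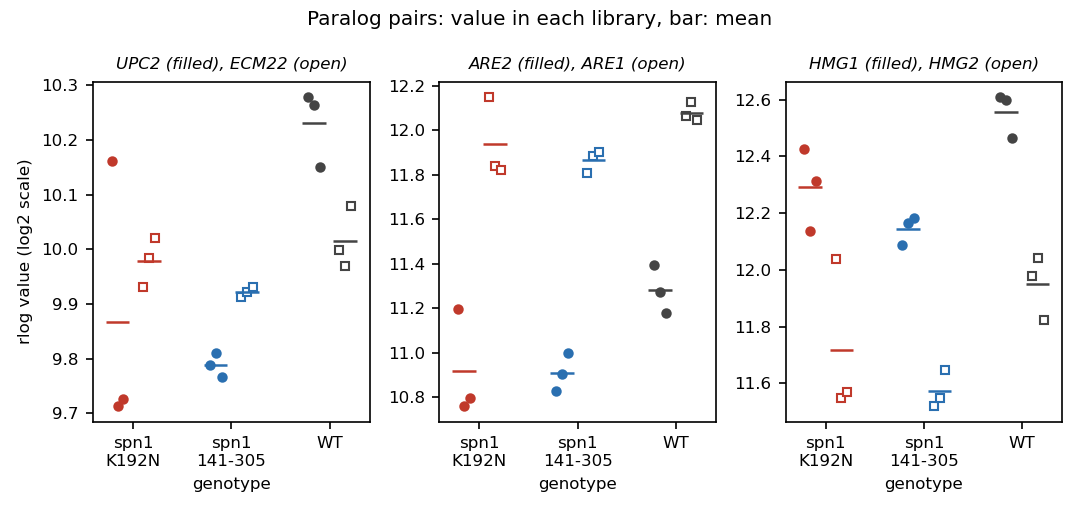
Rlog values (vertical axis, log2 scale, not starting at 0) in each library of UPC2 and ECM22, ARE2 and ARE1, and HMG1 and HMG2, the first of each pair as filled circles and the second as open squares, in spn1 K192N, spn1 141-305 and WT. Bars are means, and the mean of UPC2 lies below that of ECM22 in both mutants and above it in wild-type. The values are not corrected for gene length, so they do not order the RNA levels within a pair.

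The 11 genes called lower in spn1 141-305 all lay in the upper 2 quartiles of gene length. Over all protein-coding genes, the share called lower in spn1 141-305 went up with length, from 4.01% in the shortest quartile (up to 777 bp) to 10.4%, 19.4% and 45.1% in the longest (1917 bp and over). Of the ergosterol genes 0 of 4 were called in the shortest quartile, 0 of 9 in the next, 5 of 11 in the next and 6 of 7 in the longest. The gene of the longest quartile that was not called was ECM22. The median log2 fold change of the 7 longest ergosterol genes was −0.37, against −0.19 for all genes of that quartile, and that of the 11 genes of the quartile before it was −0.22 against −0.12. In spn1 K192N both called genes, ARE2 and UPC2, were in the longest quartile, in which 8.41% of all genes were called lower. The part of length in the values of the ergosterol genes was not tested.

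**Figure D4:**
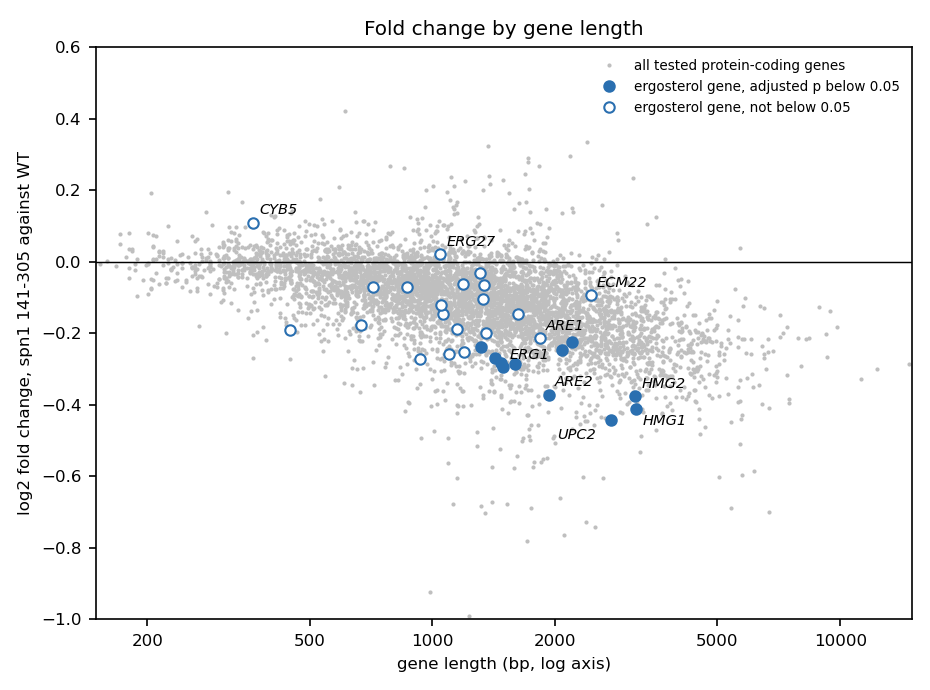
Fitted log2 fold change in spn1 141-305 against wild-type (vertical axis, rlog scale) by gene length in bp (horizontal log axis) for all tested protein-coding genes (grey) and the 31 ergosterol genes (blue, filled where the adjusted p was below 0.05), with 7 genes outside the vertical axis. The filled points lie at 1317 bp and over, and UPC2, HMG1, HMG2 and ARE2 have the lowest values.

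Of the 31 genes, 24 stood in the top quartile of mean rlog, where 10 were called lower in spn1 141-305, against 28.8% of all genes in that quartile, and 1 in spn1 K192N, against 6.61%. In the quartile below, 1 of 3 was called in each mutant, UPC2, against 24.8% of all genes in spn1 141-305 and 6.18% in spn1 K192N. Per kilobase of gene, the authors' mean scaled count was highest for ERG25 (18601), ERG11 (18375), ERG1 (16115) and ERG3 (13852), and lowest for HES1 (112), UPC2 (375), ERG29 (383) and ECM22 (411). The part of level in the calls was not tested. Of the 9 genes that hold the sterol regulatory element core, 2 were called lower in spn1 141-305 (ERG13 and ERG1) and 0 in spn1 K192N, where 18.8% and 4.80% of all tested genes were. The first count is near that share. The median log2 fold change in spn1 141-305 was −0.20 with the core and −0.18 without.

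In spn1 141-305 against spn1 K192N, 0 of 31 ergosterol genes were called by limma in either direction, where 1.28% of all tested genes were called lower and 0.621% higher. Of the 31, 24 had a value below 0, against 63.4% of all genes. At an unadjusted p below 0.05 there was 1, ERG4, with −0.19 (95% interval −0.37 to −0.014, adjusted p = 0.336). The libraries did not overlap for ERG5, ERG4 and ECM22, lower in spn1 141-305, 3 of 31 against 12.0% of all genes, and for ERG29, higher, 1 of 31 against 4.55%. The largest difference upward was ERG27, 0.16 (95% interval −0.012 to 0.34). For UPC2 the interval ran from −0.26 to 0.098 and for ARE2 from −0.20 to 0.18, so these data do not show that the mutants act alike in them. Without spn1 K192N replicate 1, ERG27 was called higher in spn1 141-305, with a log2 difference of 0.27 (adjusted p = 0.0191), 1 of 31 against 1.95% of all genes.

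Other genes of sterol biology were read from a list of 51, covering sterol uptake and anaerobic cell wall genes, other regulators, turnover of HMG-CoA reductase, ester hydrolysis, acetylation, glucosylation, sterol transport and isoprenoid branches. In spn1 141-305 14 of 51 were called lower (18.8% of all genes) and 0 higher, and in spn1 K192N 3 were called lower (4.80% of all genes) and 0 higher. The count in spn1 141-305 was 8 without spn1 141-305 replicate 1, 9 without replicate 2, 7 without wild-type replicate 1 (4.67% of all genes) and 9 without wild-type replicate 2. It was 11 without spn1 141-305 replicate 3 and 13 without spn1 K192N replicate 2. It rose to 20 without spn1 K192N replicate 1 (34.2% of all genes), 18 without spn1 K192N replicate 3 and 16 without wild-type replicate 3. The count in spn1 K192N was 25 without spn1 K192N replicate 1 (34.1% of all genes) and 0 without its replicate 2 or 3. It was 0 without wild-type replicate 1 (0.840% of all) and 1 without wild-type replicate 2 or spn1 141-305 replicate 1 or 2. For the fits given without a share over all genes, that share was not computed.

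ATF2 encodes an acetyltransferase that acts on sterols. It had values of 10.26, 9.98 and 9.97 in spn1 K192N, 9.79, 9.78 and 9.81 in spn1 141-305, against 10.37, 10.42 and 10.21 in wild-type. All libraries of spn1 141-305 were below the others. ATF2 fell by 0.27 on the log2 scale in spn1 K192N (adjusted p = 0.0406) and fell by 0.54 in spn1 141-305 (adjusted p = 3.27e-05). YEH1, a steryl ester hydrolase gene, had −0.27 in spn1 K192N (adjusted p = 0.0472) and −0.49 in spn1 141-305 (adjusted p = 0.000183), and was called in both. HAP1, the heme-responsive activator gene, which is disrupted by a Ty1 insertion in this strain background, had −0.40 in spn1 K192N (adjusted p = 0.00841) and −0.44 in spn1 141-305 (adjusted p = 0.00182), and was also called in both. In spn1 141-305, TIR4, an anaerobic cell wall mannoprotein gene, was called with −0.53 (adjusted p = 3.58e-05), AUS1, a sterol importer gene, with −0.39 (adjusted p = 0.00182) and SSM4, the gene of the ubiquitin ligase Doa10, with −0.38 (adjusted p = 0.00242). In spn1 K192N these 3 were not called with all libraries, at −0.17 for TIR4 (adjusted p = 0.175), −0.09 for AUS1 (adjusted p = 0.482) and −0.25 for SSM4 (adjusted p = 0.0633). Without spn1 K192N replicate 1 all 3 were called there (adjusted p = 0.00174 for TIR4, 0.0361 for AUS1 and 0.000788 for SSM4). With scaling to the median gene SSM4 was also called in spn1 K192N (adjusted p = 0.0485). Under that scaling ATF2 (adjusted p = 0.0541) and YEH1 (adjusted p = 0.058) lost their calls in spn1 K192N, and HAP1 kept its call (adjusted p = 0.00488). Between the mutants SSM4 differed by −0.13 (adjusted p = 0.588). The calls of these 6 genes in spn1 141-305 were kept in all 9 fits without 1 library. In spn1 K192N HAP1 kept its call in 6 of the 9 fits and lost it without spn1 K192N replicate 2 or 3 or wild-type replicate 1. ATF2 kept it in 3 and YEH1 in 2.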

How the data were processed

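RNA-seq libraries of 3 genotypes were grouped by their labels, 3 per genotype. The labels' cell line of the RNA libraries differs from library to library in its number and was not used. The authors quantified transcripts with Salmon 1.9 against S. cerevisiae (Ensembl release 113, R64) and S. pombe transcripts, both genomes serving as decoys, and scaled libraries on the S. pombe genes with DESeq2 1.30.1. The deposited matrix holds rlog values on a log2 scale. The authors' comparison tables hold log2 fold changes, errors and p-values, which were not used, and a mean scaled count per gene, a signal that the authors averaged over libraries, which was used for levels per kilobase. No counts per library were used, so depth is unknown. The limma p-values rest on the spread between cultures of a genotype, pooled over the 3 genotypes and moderated over genes. Each comparison of 2 genotypes thus also draws on the spread of the third. The chromatin libraries were not analysed here.

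The tests were fitted with limma 3.58.1 in R 4.3.3 (eBayes with a trend) to genes whose rlog averaged log2(10) or more. Paralog differences were compared by exact permutation. Motifs and sequences were read from the RefSeq R64 genome, to which 5896 identifiers matched and 681 did not, so overlaps with the latter genes were not checked. Python 3.11.15, pandas 2.3.3, numpy 2.4.6 and matplotlib 3.10.9 were used.

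The 31 genes and the lists were chosen with earlier results of these data known. Library values are given for called genes, UPC2, ECM22 and the paralog pairs, and up to 6 called genes of the list of 51 were named. Alternatives covered the filter, scaling, prior variance, libraries in the fit, replicate block and each library left out. Scaling to the median gene without spn1 K192N replicate 1 was added after seeing the data.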

Additional observations from a re-analysis of the deposited data

Results flagged for a closer look

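In 3 genes of the list of 51 the effects of the 2 alleles differed, by the test of spn1 141-305 against spn1 K192N over all genes. Of the 51, 2 were called lower (1.28% of all tested genes) and 1 higher (0.621%). AUS1 had values of 10.18, 10.26 and 10.14 in spn1 141-305 and 10.67, 10.43 and 10.37 in spn1 K192N, a log2 difference of −0.30 (adjusted p = 0.0468 from limma). TIR4 had 9.06, 8.98 and 9.12 in spn1 141-305 and 9.62, 9.30 and 9.32 in spn1 K192N, a difference of −0.36 (adjusted p = 0.00826 from limma). ROX1, which represses hypoxic genes, had 9.33, 9.24 and 9.33 in spn1 141-305 and 9.14, 9.10 and 8.86 in spn1 K192N, a difference of 0.26 (adjusted p = 0.0416 from limma). In all 3 the libraries of the mutants did not overlap. TIR4 lost its call without spn1 141-305 replicate 2 (adjusted p = 0.0607), while AUS1 kept its call in 2 and ROX1 in 3 of the 9 fits without 1 library. No ergosterol gene met this rule. Without a trend in the prior variance, 0 of the 51 were called between the mutants (0.218% of all genes lower, 0.101% higher). A fit of only the genotypes compared called 1 of the 51 lower (0.907% of all) and 0 higher (0.487%).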

How the results depend on the processing

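Calls in spn1 141-305 rest on small shrunk differences, and counts moved with the setting. Over the 31 genes, comparisons and settings, 1358 values kept their side of the threshold, 75 passed it newly and 55 no longer passed it. The sign of the fold change was not always kept. With scaling to the median gene, 23 of the 31 were below 0 in each mutant against wild-type. As deposited, 28 were below 0 in spn1 K192N and 29 in spn1 141-305. The scaling took out a shift shared by all genes, −0.0767 in spn1 K192N and −0.101 in spn1 141-305. Values between that shift and 0 therefore changed sign. Of the ergosterol genes lower in spn1 K192N (2 in the report), 4 were called with the filter raised to log2(100), 0 without a trend in the prior variance (2.67% of all genes), and 12 with scaling to the median gene without spn1 K192N replicate 1 (7.86% of all). In spn1 141-305 (11 in the report), 6 lower (8.30% of all genes) and 1 higher (3.17%) were called with scaling to the median gene. A fit of only the genotypes compared called 19 lower (34.9% of all genes). The added scaling called 1 higher in spn1 141-305 (7.57% of all) and 1 higher between the mutants (2.32%). Leaving out 1 library gave 0 to 23 lower in spn1 K192N, 2 to 19 lower in spn1 141-305, and 0 to 1 higher between the mutants. Over 9 same-numbered pairs of libraries r ran from −0.275 to 0.245, with 3 over 0.1. These r values use deviations from means of 3 libraries and so depend on one another. They cannot settle whether the replicate numbers pair the libraries. With the replicate number as a block, 5 ergosterol genes and 5 of the 51 were lower in spn1 K192N (7.88% of all genes). Of the list of 51, lower in spn1 K192N were 1 without the filter and 1 without the trend (2.67% of all genes). With the added scaling 6 were lower there (7.86% of all) and 1 higher (6.06%). In spn1 141-305 8 were lower (8.30% of all) and 1 higher (3.17%) with scaling to the median gene. The fit of only the genotypes compared called 1 higher (0.991% of all), and the added scaling called 2 higher (7.57%). Between the mutants, 1 was lower and 0 higher without the filter. Without the trend 0 were lower (0.218% of all) and 0 higher (0.101%). With only the genotypes compared 1 was lower (0.907% of all) and 0 higher (0.487%). Leaving out 1 library gave 0 to 25 lower in spn1 K192N, 7 to 20 lower and 0 to 1 higher in spn1 141-305, and 0 to 4 lower and 0 to 1 higher between the mutants.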
